A study of Mus musculus with 10 samples.

Results

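The 5 Acsl genes Acsl1, Acsl3, Acsl4, Acsl5 and Acsl6 and the 4 Slc27 genes Slc27a1, Slc27a2, Slc27a3 and Slc27a4 were followed through the RNA-seq data of inguinal white adipose tissue (iWAT). They were taken by name and are 9 of the 51826 genes listed. The libraries came from male C57BL/6 mice in 4 groups, with 1 library per mouse. F1-CD (n = 3) were offspring of fathers on the control diet (CD), and F1-LPD (n = 3), the pLPD offspring, had fathers on the low-protein diet (LPD). Both F1 groups ate CD themselves, as did their mothers, and were killed at 5 weeks of age. F0-CD (n = 2) and F0-LPD (n = 2) ate CD or LPD from weaning and were 10 to 12 weeks old. Generation, age, library set and kind of exposure (the father's diet in F1, the mouse's own in F0) coincide, so they cannot be told apart. Each diet effect rests on few mice.

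Acyl-CoA synthetases join a fatty acid to coenzyme A, the step that traps the fatty acid in the cell and opens it to every later use. The Acsl enzymes act on long-chain fatty acids, and the members sit on different membranes, so they are thought to feed different pathways. Slc27 proteins, also called fatty acid transport proteins, promote fatty acid uptake, and several of them are acyl-CoA synthetases themselves. In adipocytes the acyl-CoA made in this way is mostly built into triglyceride, and in brown and beige fat more of it is burned in mitochondria.

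Exon reads per library ranged from 6351075 to 10044546. Exons held 39.3% to 45.4% of the reads on genes in F1-LPD and 49.3% to 51.2% in F1-CD, and mitochondrial rRNA held 13.5% to 18.2% against 9.29% to 10.5%. In F0, mitochondrial rRNA held 10.9% and 12.4% with LPD and 9.59% and 9.85% with CD. The part of these composition differences in the results below was not tested, except where a fit with exon share as a covariate is given. The adipocyte markers fitted the tissue label, with a summed level of 12461 to 19037 CPM (exon reads scaled to library size) over the 10 mice for 8 markers, among them Adipoq and Plin1.

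In RPKM, the read density per kilobase of exon scaled by library, 3 genes held nearly all of the signal. Acsl1, the main long-chain synthetase of adipocytes, had a mean of 112 RPKM over the 10 mice, ranging from 84.0 to 160. Slc27a1, the insulin-responsive transporter of fat and muscle, followed with a mean of 43.9 RPKM and a range of 32.7 to 58.6. Acsl5, a synthetase of the endoplasmic reticulum and mitochondria, came next with a mean of 18.6 RPKM and a range of 11.1 to 32.5. These 3 genes stood in this order in all 10 mice, and each was above Slc27a4 in all of them. Slc27a4, a transporter best known from gut and skin, averaged 4.24 RPKM. Acsl4, which prefers arachidonic acid, averaged 3.56 RPKM, and Acsl3, found on the endoplasmic reticulum and on lipid droplets, 2.73 RPKM. Slc27a2, best known from liver and kidney, averaged 1.74 RPKM and Slc27a3 0.589 RPKM. From Slc27a4 down to Slc27a3, neighbours in this order overlapped over the mice. Acsl6, a synthetase of brain, had 0 to 9 exon reads per library and was too low to be tested in either generation. The libraries with 0 reads allow up to 3 reads, or 0.347 to 0.472 CPM at their depths, counting error only.

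**Figure D1:**
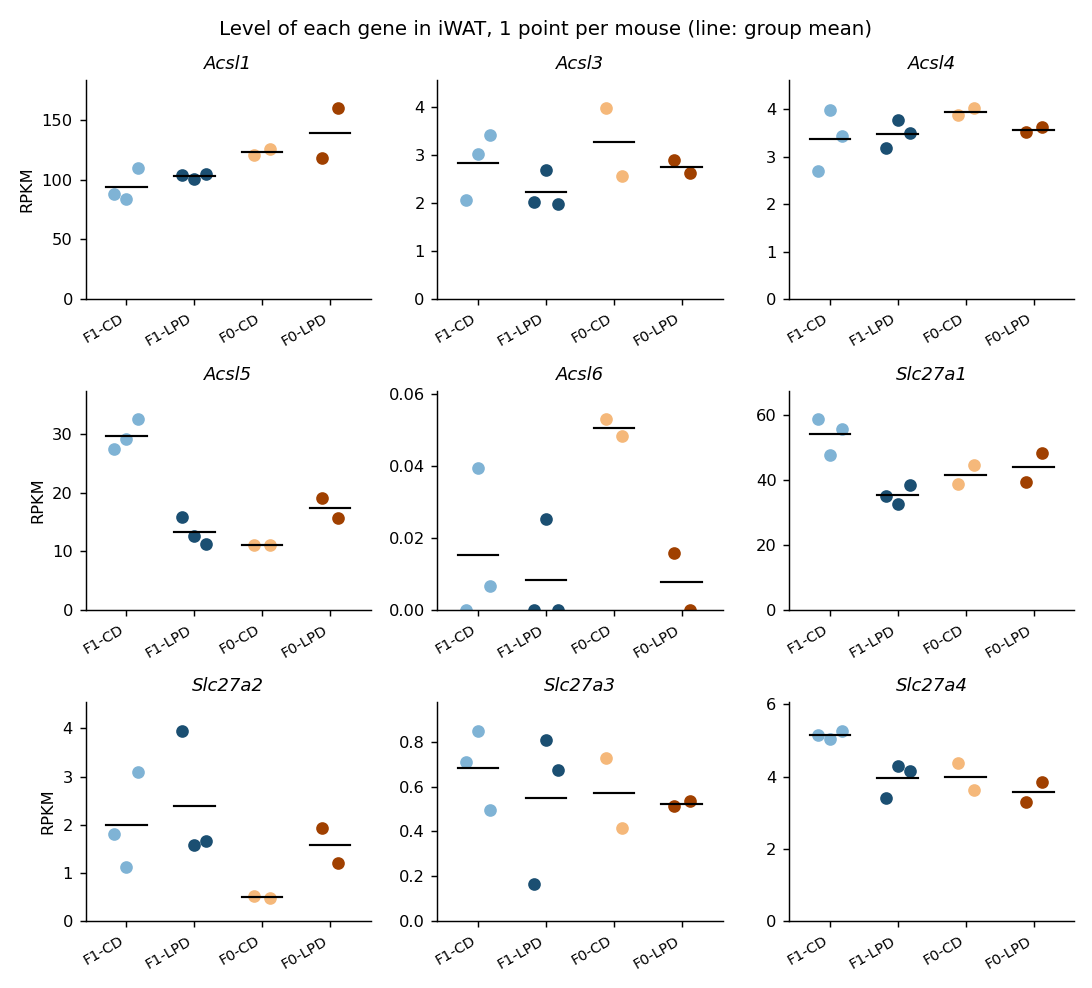
Level of each gene in RPKM (linear axis from 0, own scale per panel) in the 4 groups, with 1 point per mouse and a line at the group mean. Acsl5 is lower in every F1-LPD mouse than in every F1-CD mouse and higher in both F0-LPD mice than in both F0-CD mice, while Acsl1 overlaps between the F1 groups.

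The 2 genes that changed with diet were Acsl5 and Slc27a2, so the 250 bases before their RefSeq start site are shown (GRCm38.p6, the assembly of mm10, plus strand, 5′ to 3′). The Acsl5 stretch is chr19:55253119-55253368 and ends directly before the start of the gene model in the deposited files. That model has 1 transcript, while GENCODE vM21 gives Acsl5 6 transcripts and an extent that starts 1431 bases further upstream and ends 1093 bases further downstream. Reads on those outer stretches are not in the Acsl5 counts, and reads on exons of the other transcripts may count as intron reads, so its exon level, exon to intron ratio and family share refer to this shorter model in all 10 libraries. The other 8 genes have the same extent in both. The Slc27a2 stretch is chr2:126552774-126553023 and lies inside the deposited gene model, which starts upstream at base 126552407. Capitals mark matches, on either strand, to short motifs. The letters searched were CCAAT for the box of that name, GGGCGG for the GC box that Sp factors bind, and AGGTCA for the nuclear receptor half-site. Also searched were CACGTG for the E-box, TATAAA for the TATA box, and the direct repeat 1 of nuclear receptors, AGGTCANAGGTCA, which contains the half-site.
Acsl5: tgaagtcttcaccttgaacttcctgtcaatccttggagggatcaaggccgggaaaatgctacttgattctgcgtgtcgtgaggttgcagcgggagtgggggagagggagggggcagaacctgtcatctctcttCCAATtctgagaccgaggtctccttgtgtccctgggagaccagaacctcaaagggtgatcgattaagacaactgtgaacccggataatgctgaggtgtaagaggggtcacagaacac
Slc27a2: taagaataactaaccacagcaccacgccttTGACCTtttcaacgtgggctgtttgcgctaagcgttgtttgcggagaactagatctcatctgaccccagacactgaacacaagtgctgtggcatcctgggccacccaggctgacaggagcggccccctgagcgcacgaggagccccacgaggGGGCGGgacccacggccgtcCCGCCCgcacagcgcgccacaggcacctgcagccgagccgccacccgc
The Acsl5 stretch held 1 match, a CCAAT box at position -117 from the start site, a motif found in 37.4% of the 32851 RefSeq windows of 250 bases before to 50 after a start. The Slc27a2 stretch held 2 GC boxes, at -68 and on the other strand at -48, a motif found in 35.7% of windows. It also held a nuclear receptor half-site on the minus strand at -220, found in 16.3% of windows. Neither had a direct repeat 1, which 0.0396% of windows hold. The 9 genes had 14 windows in all, and none of the 14 held a TATA box or a direct repeat 1. A match in these letters is a description and not a binding site.

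To determine the effect of paternal diet, the F1 groups were compared first. Acsl5 was the only one of the 8 genes tested that changed, and it fell by about 1 log2 unit in the pLPD offspring. Its exon level was 186, 190 and 205 CPM in the F1-CD mice and 127, 87.8 and 80.5 CPM in the F1-LPD mice. The groups did not overlap, and the highest F1-LPD mouse was well below the lowest F1-CD mouse. The group means were 194 ± 10.2 CPM (SD, n = 3) and 98.4 ± 25.0 CPM (SD, n = 3), a log2 fold change of -0.98 (SE 0.14, adjusted p = 0.0118). Over all 14049 genes tested, 1.02% were called lower and 0.142% higher, against 1 and 0 of the 8 genes here. The value was called in all 12 other fits, where it ranged from -1.62 to -0.79, and the largest came with exon share as a covariate. It was not called without F1-CD replicate 1 (adjusted p = 0.0616) or without F1-LPD replicate 2 (adjusted p = 0.0849), where the log2 fold changes were -1.01 and -0.90.

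Slc27a1 was next in F1 but did not pass the test. It stood at 735, 576 and 651 CPM in F1-CD and at 520, 418 and 507 CPM in F1-LPD. Every pLPD offspring was below every control, with a log2 fold change of -0.44 (SE 0.12, adjusted p = 0.101). It was called in 4 of the 12 other fits, among them DESeq2 (adjusted p = 0.015). Slc27a4 showed the same order of groups, with 46.1 to 48.9 CPM in F1-CD and 38.2 to 41.5 CPM in F1-LPD, a log2 fold change of -0.23 (SE 0.09, adjusted p = 0.278). Exon levels without overlap and lower in F1-LPD were found for 10.3% of all genes tested, and for 3 of the 8 genes here.

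The most abundant gene went the other way without passing the test. Acsl1 was at 1782, 1646 and 2088 CPM in F1-CD and at 2491, 2082 and 2239 CPM in F1-LPD. The groups overlapped by 1 mouse on either side, and the log2 fold change was 0.30 (SE 0.12, adjusted p = 0.261). Slc27a2 was at 14.6, 8.69 and 23.2 CPM in F1-CD and at 37.6, 13.1 and 14.0 CPM in F1-LPD. Its log2 fold change of 0.48 (SE 0.41, adjusted p = 0.617) rested on F1-LPD replicate 1, and without that mouse it was -0.18. Acsl3 (log2 fold change -0.18), Acsl4 (0.21) and Slc27a3 (-0.20) had adjusted p values of 0.658, 0.48 and 0.873, and their groups overlapped. Over the 8 genes, 3 had a positive and 5 a negative log2 fold change, with a median of -0.19 against 0.01 over all genes tested.

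Other cell types also differed between the F1 groups. Of 6 macrophage markers, 3 fell (Adgre1, Csf1r and C1qa), and their summed level was 404 to 509 CPM in F1-LPD against 612 to 728 CPM in F1-CD. Of 4 epithelial markers tested, 2 fell (Krt8 and Krt18), with sums of 1.54 to 4.96 CPM against 10.5 to 14.9 CPM. The 6 progenitor or fibroblast markers summed to 10102 to 12936 CPM against 13955 to 23481 CPM, with no marker called. Adipocyte marker sums overlapped, at 13875 to 17583 CPM against 12461 to 15313 CPM. The part of these cells in the Acsl5 value was not tested. In whole tissue, fewer cells of a type and less RNA per cell cannot be told apart.

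To ask what the diet itself did in the fed males, F0-LPD was compared with F0-CD. Here Acsl5 and Slc27a2 rose. Acsl5 was at 67.0 and 66.0 CPM in F0-CD and at 121 and 96.3 CPM in F0-LPD. The 2 control mice were nearly equal and both LPD-fed mice stood above them, with a log2 fold change of 0.71 (SE 0.11, adjusted p = 0.0196). Slc27a2 was at 3.79 and 3.39 CPM in F0-CD, 34 reads in each library, and at 14.6 and 8.85 CPM in F0-LPD, 139 and 76 reads. This was a rise of 1.71 on the log2 scale, or 3.28-fold (SE 0.28 in log2, adjusted p = 0.0208). Of all 14581 genes tested, 1.18% were called higher and 1.32% lower, against 2 and 0 of the 8 genes here.

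Both calls were lost in some other fits. When the 4 groups shared 1 fit and 1 estimate of the spread, log2 fold changes of 0.71 and 1.71 had adjusted p values of 0.0764 (Acsl5) and 0.225 (Slc27a2). With limma-trend neither passed on log2 RPKM, where the value of Slc27a2 was 1.44 with 0.1 added (adjusted p = 0.0639) and 0.76 with 1 added (adjusted p = 0.0779). Without F0-CD replicate 1 or F0-CD replicate 2, Acsl5 had adjusted p values of 0.0576 and 0.0608. Slc27a2 missed the threshold without F0-CD replicate 2 (adjusted p = 0.0627) or F0-LPD replicate 1 (adjusted p = 0.0562). Of the Slc27a2 exon reads, 81.5% were uniquely mapped, and an antisense gene, Gm26697, overlaps it. With unique reads its log2 fold change was 1.96 (adjusted p = 0.0144).

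The other genes did not pass the test in F0. Acsl1 was at 2184 and 2225 CPM in F0-CD and at 2238 and 2932 CPM in F0-LPD, a log2 fold change of 0.23 (SE 0.17, adjusted p = 0.581). The difference came from 1 LPD-fed mouse, and without F0-LPD replicate 2 the value was 0.02. Slc27a1 was at 431 and 488 CPM in F0-CD and at 461 and 547 CPM in F0-LPD, with overlap and a log2 fold change of 0.13. Acsl3, Acsl4, Slc27a3 and Slc27a4 had log2 fold changes between -0.18 and -0.06. Exon levels did not overlap for Acsl1, Acsl5 and Slc27a2 (LPD above) and for Acsl4 (LPD below), and with 2 mice a group 23.0% and 23.5% of all genes do so in these directions.

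Brown or beige adipocyte markers rose in the same F0-LPD mice. Of 6 markers, 5 rose, among them Ucp1, which uncouples respiration (log2 fold change 2.89, adjusted p = 0.0196), and the summed level was 624 to 744 CPM in F0-LPD against 121 to 251 CPM in F0-CD. Skeletal muscle markers fell, 6 of 8, with sums of 660 to 910 CPM against 1407 to 2162 CPM. The slow myosin Myh7 fell by 5.65 on the log2 scale. In F1 the brown or beige sums overlapped, at 733 to 2233 CPM in F1-LPD and 1162 to 1732 CPM in F1-CD. The part of either cell type in the rise of Acsl5 and Slc27a2 was not tested.

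**Figure D2:**
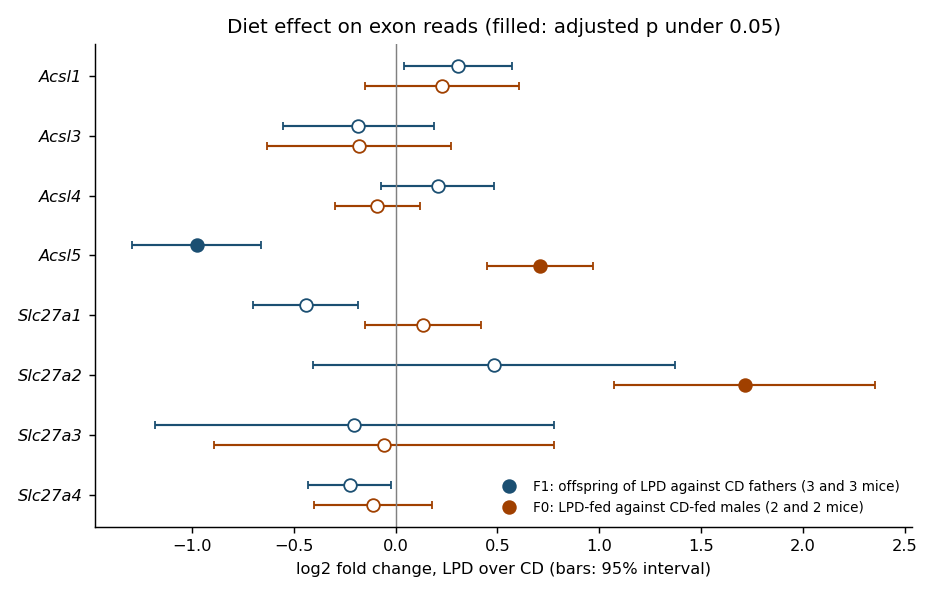
Log2 fold change of exon reads, LPD over CD, for the 8 genes tested in F1 (blue) and F0 (brown), with 95% intervals from edgeR and filled points where the adjusted p was under 0.05. Acsl5 is at -0.98 in F1 and 0.71 in F0 with intervals on opposite sides of 0, and Slc27a2 is filled in F0 alone.

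Acsl5 thus had called effects of opposite sign, and the difference was tested directly as an interaction over all 10 libraries. The F1 effect minus the F0 effect was -1.69 for Acsl5 (SE 0.23, adjusted p = 0.00681). Over all 15111 genes tested, the F1 effect was called below the F0 effect for 0.893% and above it for 0.357%. Acsl5 was the only one of the 8 genes called. It was also called in all 11 other fits, from -2.20 to -1.28, and without each of the 10 mice in turn, where the adjusted p was at most 0.0464. Slc27a1 had an interaction of -0.58 (SE 0.19, adjusted p = 0.181) and Slc27a2 of -1.24 (SE 0.71, adjusted p = 0.503), so a different effect in the 2 generations was not shown for them. For the other 5 genes the interaction lay between -0.15 and 0.29.

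In mice on CD, 4 of the 8 genes were lower in F0 than in F1. This contrast compares mice of 10 to 12 weeks with mice of 5 weeks. Acsl5 fell from 194 ± 10.2 to 66.7 ± 0.809 CPM, a log2 fold change of -1.54 (SE 0.17, adjusted p = 5.86e-05). Slc27a2 had 15.5 ± 7.33 CPM in F1-CD and fell by 2.09 on the log2 scale (SE 0.54, adjusted p = 0.0172). Slc27a1 fell by 0.51 (adjusted p = 0.0207) and Slc27a4 by 0.50 (adjusted p = 0.00745). Of 11 other fits, Acsl5 was called in 11, Slc27a2 and Slc27a4 in 9 each and Slc27a1 in 7. With exon share as a covariate, Slc27a2 (adjusted p = 0.0827) and Slc27a1 (adjusted p = 0.134) were not called. Acsl1 had a log2 fold change of 0.26 (adjusted p = 0.218). Lower levels in F0-CD were called for 10.1% and higher levels for 8.78% of all genes tested. The brown or beige sums given above were also lower in F0-CD than in F1-CD, with no overlap. F1-CD is the common reference of this contrast and of the F1 diet effect, so the 2 are not independent. The F1-LPD level of Acsl5, 98.4 CPM, lay between the F0-CD mean and the F1-CD mean.

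**Figure D3:**
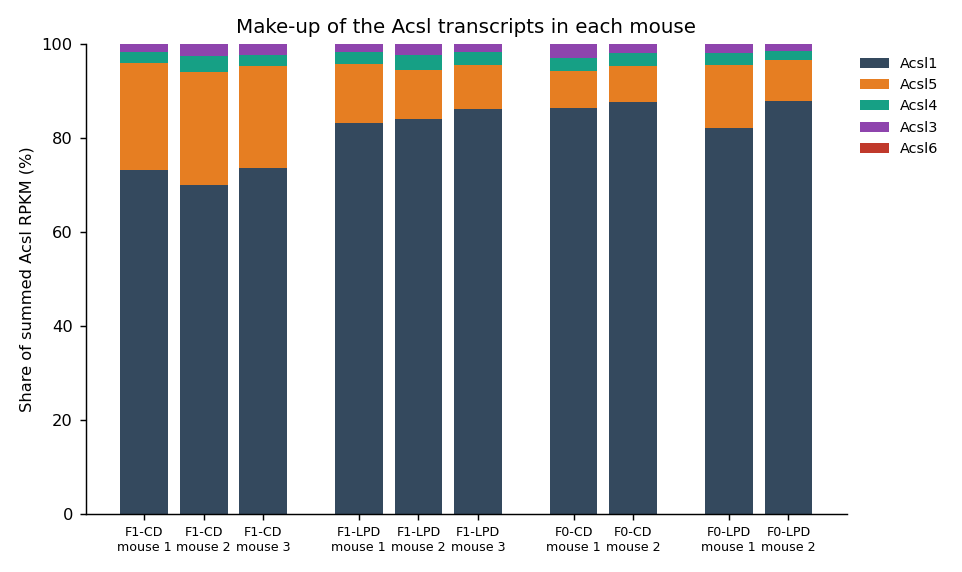
Share of each Acsl gene in the summed Acsl RPKM, in percent, with 1 stacked bar per mouse. Acsl5 takes 21.7% to 24.2% in the F1-CD mice and 7.81% to 13.3% in all other mice.

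Shares within a family do not depend on scaling between libraries. Acsl5 made up 22.9%, 24.2% and 21.7% of the summed Acsl RPKM in the F1-CD mice and 12.7%, 10.6% and 9.31% in the F1-LPD mice. Acsl1 moved the other way, at 69.9% to 73.7% in F1-CD and 83.1% to 86.2% in F1-LPD. The Acsl5 share differed by -12.1 percentage points (exact two-sided permutation p = 0.1, adjusted p = 0.3 over 9 genes), and 0.1 is the smallest p that 3 against 3 mice allow. In F0 the Acsl5 share was 7.96% and 7.81% with CD and 13.3% and 8.67% with LPD, a difference of 3.12 points (exact permutation p = 0.333, the smallest that 2 against 2 allow). It was 0.789 points without F0-LPD replicate 1 and 5.44 points without F0-LPD replicate 2. From exon reads not divided by length, the Acsl5 share differed by -5.28 points in F1 and 1.21 points in F0. The summed Acsl RPKM overlapped between the F1 groups, at 130 ± 17.1 with CD and 122 ± 2.81 with LPD (SD, n = 3). The summed Slc27 RPKM was 61.8 ± 6.27 in F1-CD and 42.4 ± 2.86 in F1-LPD (SD, n = 3) without overlap (exact permutation p = 0.1). On the RPKM scale the median of all genes tested was itself shifted by -0.15 log2 units in F1. Slc27a1 made up 82.4% to 90.8% of the Slc27 sum in every mouse. In F1 its share was 86.3% to 88.4% with CD and 82.4% to 85.6% with LPD, without overlap. That was a difference of -3.64 points (exact permutation p = 0.1, adjusted p = 0.3 over 9 genes). In F0 its share overlapped, at 87.3% and 90.8% with CD and 87.3% and 89.6% with LPD. The Slc27a2 share was 1.19% and 0.981% in F0-CD and 4.30% and 2.25% in F0-LPD.

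Reads in introns come mostly from unspliced transcripts, so they give a further readout on the same genes. No member was called on intron reads in F1 or F0 by the main edgeR fits. In these, 0.26% and 2.12% of all genes were called lower and 0.163% and 1.36% higher. At an unadjusted p under 0.05 there was 1 gene in F1, Slc27a1 with a log2 fold change of -0.38, and 1 in F0, Slc27a2 with 0.86. Over all genes, 8.17% were lower in F1 and 7.04% higher in F0 at that level, so 1 of 7 and 1 of 8 are no result about these genes. Acsl5 intron reads stood at 73.2, 66.9 and 93.5 CPM of intron reads in F1-CD and at 71.9, 58.2 and 65.8 in F1-LPD. They overlapped, with a log2 fold change of -0.25 (95% interval -0.54 to 0.04, adjusted p = 0.437). In F0 they stood at 68.9 and 61.6 with CD and at 66.5 and 68.1 with LPD, a log2 fold change of 0.05 (95% interval -0.18 to 0.27, adjusted p = 0.888). Over the 10 mice the highest Acsl5 exon CPM was 3.11 times the lowest and the highest intron CPM 1.61 times the lowest. For Slc27a2 the ratios were 11.1 and 10.4, with 7 to 64 intron reads per library.

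**Figure D4:**
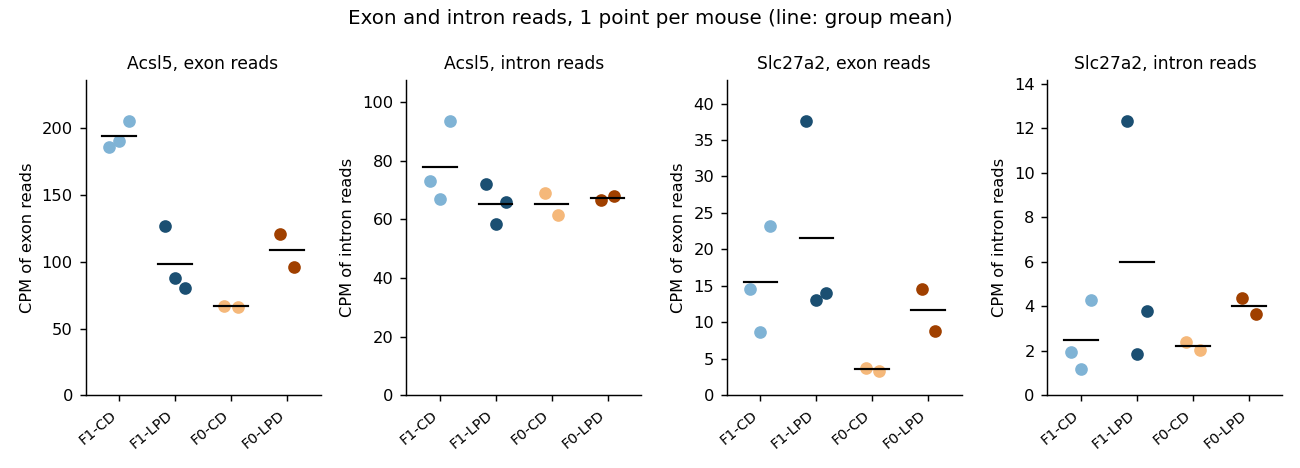
Exon and intron reads of Acsl5 and Slc27a2 in CPM, scaled within each generation and read type, with 1 point per mouse and a line at the group mean. Acsl5 exon reads separate the diets in both generations while its intron reads overlap. Slc27a2 is high in F1-LPD replicate 1 on both readouts.

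The ratio of exon to intron reads puts this on 1 scale per mouse. For Acsl5 it was 3.69, 4.16 and 3.19 in F1-CD and 2.22, 2.02 and 1.86 in F1-LPD, a log2 difference of -0.85 (exact permutation p = 0.1, adjusted p = 0.35 over 7 genes). The median over 12035 genes was -0.08, and with each library's median taken off, the Acsl5 groups still did not overlap, which 6.55% of genes showed in this direction. In F0 the ratio was 1.60 and 1.84 with CD and 3.04 and 2.47 with LPD, a log2 difference of 0.67 (exact permutation p = 0.333, adjusted p = 0.381 over 8 genes). After the library medians were taken off, 21.5% of genes separated in this direction. The F0 shift was larger for Slc27a2 than for Acsl5, at 2.56 and 2.76 with CD and 5.47 and 4.14 with LPD. This was a log2 difference of 0.84 (exact permutation p = 0.333) on 12 to 25 intron reads per library. The largest log2 difference, 0.93, was that of Slc27a3, on 4 to 19 intron reads per library. Its groups overlapped, at 2.41 and 1.05 with CD and 1.76 and 5.22 with LPD. The Slc27a1 ratio in F0 was 3.95 and 3.28 with CD and 4.32 and 4.89 with LPD. The Acsl1 ratio was 3.72 and 3.91 with CD and 3.93 and 4.58 with LPD, and neither gene overlapped. Other ratios were lower with LPD in F0. Acsl4 was at 0.973 and 1.01 with CD and 0.84 and 0.942 with LPD. Slc27a4 was at 8.37 and 5.97 with CD and 5.27 and 5.95 with LPD. Both stayed without overlap after the library medians were taken off, which 21.7% of genes showed in this direction. In F1 the ratios of Acsl1, Slc27a1 and Slc27a2 overlapped. Acsl3 was at 1.73, 2.31 and 1.51 in F1-CD and at 1.35, 1.33 and 1.31 in F1-LPD (exact permutation p = 0.1). It was also lower with LPD in F0, at 2.74 and 1.66 with CD and 1.63 and 1.56 with LPD, and in both generations its groups overlapped once the library medians were taken off.

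The mouse-to-mouse pattern of Acsl1 and Slc27a1, the leading gene of each family, was also described, using log2 CPM of the 10 mice with the mean of each generation taken off. Among 13869 other genes, Pfkfb3, a regulator of glycolysis, had the highest Pearson correlation with Acsl1 (r = 0.967), followed by Irs2, an insulin receptor substrate (r = 0.954), Gm26583, Zfp106 and Arl4a. For Slc27a1 these were Mrps33 (r = 0.955), Lman2l, Rfk, Map1lc3b and Fbxo42, and 17.3% of the Map1lc3b reads were uniquely mapped. Acsl1 and Slc27a1 had an r of -0.13 with each other, while Slc27a1 had an r of 0.73 with Acsl5 and of -0.79 with Acsl4. Acsl5, added after its values were seen, was most like Hebp2 (r = 0.991), Plekho1, 5031439G07Rik, Pfkl (r = 0.971), an enzyme of glycolysis, and Sirpa. These correlations share the 10 libraries and their diet groups and are given without a test.

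Genes that act before and after acyl-CoA formation were counted from lists. Over all genes tested in F1, 1.02% were called lower and 0.142% higher. In F1, few passed: none of 9 other acyl-CoA synthetases, none of 13 genes of fatty acid uptake and carriage, none of 8 of the carnitine shuttle, which carries acyl groups into mitochondria, and none of 24 that use acyl-CoA to build glycerolipids and cholesteryl esters. Of 16 genes of acyl-CoA binding and hydrolysis, 1 fell, Acot11, a thioesterase that splits acyl-CoA (from 242 to 101 CPM, log2 fold change -1.26, SE 0.26, adjusted p = 0.0466). Of 15 regulators, 1 rose, Ppargc1a, a coactivator of mitochondrial genes (from 17.2 to 35.7 CPM, log2 fold change 1.05, SE 0.18, adjusted p = 0.026). Among the other synthetases, the most abundant were Acss2, which makes acetyl-CoA (log2 fold change -0.80, adjusted p = 0.148), and Aacs, which activates acetoacetate (-0.71, adjusted p = 0.0908).

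In F0, some genes of the uptake and carnitine lists were called higher. Over all genes tested in F0, 1.18% were called higher and 1.32% lower. Of 13 uptake and carriage genes, 3 were called higher and none lower, while 10 had a positive and 3 a negative log2 fold change. Lpl was among the negative ones (-0.31, adjusted p = 0.411). Fabp3, a fatty acid binding protein of muscle and brown fat, had a log2 fold change of 1.62 (adjusted p = 0.00223). The others called were Angptl4, an inhibitor of lipoprotein lipase (1.02, adjusted p = 0.0179), and Vldlr, a lipoprotein receptor (0.51, adjusted p = 0.0464). Of the 8 carnitine shuttle genes, 3 rose and none fell. These were Cpt1b (1.59, adjusted p = 0.0228) and Cpt1a (0.70, adjusted p = 0.0334), which join acyl groups to carnitine, and the carrier Slc25a20 (1.06, adjusted p = 0.00627). The median of the carnitine list was 0.46 against 0.00 over all genes tested. Gpam, which starts glycerolipid synthesis, fell by 0.45 (adjusted p = 0.0476), 1 of 24 genes of its list. Of 15 regulators, 2 rose, Ppara (1.12, adjusted p = 0.0249) and Cebpb (0.55, adjusted p = 0.0186). None of 10 other synthetases and none of 16 binding and hydrolysis genes passed. The brown or beige markers given above rose in the same mice.

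Of the 86 list genes tested for the interaction, the F1 effect was called below the F0 effect for 3 and above it for 1. Over all genes tested, these calls were made for 0.893% and 0.357%. The interaction was -2.81 for Acot11 (adjusted p = 0.0318), which was at 38.6 CPM in F0-CD and 112 CPM in F0-LPD. It was -0.98 for Cebpb (adjusted p = 0.00945) and 1.44 for Ppargc1a (adjusted p = 0.041). It was -1.27 for Mogat1, which acylates monoacylglycerol and is named after its values were seen (adjusted p = 0.0391). Mogat1 passed in neither generation alone, with log2 fold changes of -0.75 in F1 and 0.51 in F0. For Slc25a20, Cpt1a and Cpt1b it did not pass, with adjusted p values of 0.0606, 0.166 and 0.145.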

How the data were processed

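iWAT RNA of 10 male mice was sequenced as rRNA-depleted, directional, paired-end libraries. CLC Genomics Workbench was used by the authors, with mm10 as the genome. They deposited, per gene and library, whole-number counts of reads on exons, introns and the whole gene, with RPKM calculated by the authors. Whether reads were counted by strand is not given in the sources used here, and Acsl3, Slc27a2, Acsl1 and Acsl6 overlap other genes. The 9 genes and all gene and marker lists were chosen with earlier results of these data known. The named genes were all 9 members, the 5 genes most correlated with the leading gene of each family, and, per list, up to 4 called genes per generation, or the 2 most abundant where none was called. Outside this rule, the genes most like Acsl5, some cell type markers and Mogat1 were named after their values were seen.

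Exon counts were tested with the edgeR quasi-likelihood F test (edgeR 4.0.16, R 4.3.3), with filterByExpr, TMM scaling and Benjamini-Hochberg adjustment over all genes tested, called at an adjusted p under 0.05. F1 and F0 were fitted alone. The interaction and the F0-CD against F1-CD contrast used all 10 libraries. Intron counts were tested in the same way. CPM are TMM-scaled within each fit, and RPKM served for levels between genes and for shares, with exact two-sided permutation tests. The exon fits were tested on simulated counts with equal spread for all genes and changes only in well-covered genes. Changes at low counts, the intron fits and the permutation tests were not covered. Alternatives were DESeq2 1.42.0, the likelihood ratio test, other scaling, filters and read classes, limma-trend 3.58.1 on log2(RPKM + 0.1) and log2(RPKM + 1), exon share as a covariate, the replicate block and each mouse left out. The F1 mice are stated to have different mothers, and p-values measure the spread between these mice. No 2 libraries of a group agreed within counting error. Cavin1 was not matched in the tables. Promoter sequences are from RefSeq, and protein sequences were not used here.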

Additional observations from a re-analysis of the deposited data

Results flagged for a closer look

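The effect of the father's LPD in F1 on Acsl5 exon reads differed from that of the mouse's own LPD in F0. In a direct test of the difference, the log2 fold change in F1 minus that in F0 was -1.69 (edgeR quasi-likelihood interaction, adjusted p = 0.00681). Acsl5 was lower in 3 of 3 F1-LPD mice than in every F1-CD mouse and higher in 2 of 2 F0-LPD mice than in both F0-CD mice. Over all genes tested, 10.3% separated in this way in F1 and 23.0% in F0.

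The Acsl5 share of the summed Acsl RPKM moved in opposite directions, by -12.1 percentage points in F1 and by 3.12 percentage points in F0, with every LPD mouse on 1 side of every CD mouse in each generation. The F0 difference was 0.789 to 5.44 points when 1 mouse was left out. From exon reads not divided by length, the differences were -5.28 and 1.21 points. The exact permutation p of the Acsl5 share was 0.1 in F1 and 0.333 in F0, the smallest that these group sizes allow. The difference between these share changes was not tested.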

How the results depend on the processing

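With 2 or 3 mice a group, small differences between these genes could not be resolved. In F1, 1 gene was called lower, and 2 with DESeq2, the likelihood ratio test or no filter on low counts. In F0, 2 genes were called higher, and 0 with limma-trend on either RPKM scale or with all 4 groups in one fit. The interaction was called for 1 gene, for 3 without a filter and for 2 with exon share as a covariate. In CD mice 4 genes were lower in F0, 2 with limma-trend on log2(RPKM + 0.1) or exon share as a covariate and 1 on log2(RPKM + 1). On introns, 1 gene was called in each direction in F1 by edgeR without a filter. These were Slc27a1, lower (adjusted p = 0.0113), and Slc27a2, higher (adjusted p = 0.0248). None was called in the other alternatives. Leaving out 1 mouse gave 0 to 1 called genes in F1, 0 to 2 in F0, 1 to 4 in CD mice and 0 to 1 lower on introns in F0. Over all genes, 144 were called lower in F1, and 14 to 564 under the alternatives. In F0, 172 were called higher, and 12 to 656 under the alternatives. For the interaction, 135 were called below and 54 above, 65 to 576 and 9 to 314 under the alternatives, and 14 to 263 and 5 to 132 without 1 mouse. The cause was not tested.

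Same-numbered mice correlated at 0.00903 to 0.0736 in their deviations, and F1 mice with different numbers at -0.0815 to 0.0658. In F0 the values are mirror images, because each group has 2 mice. Whether same-numbered mice share a batch or day is not in the labels, and these values cannot decide it. With the replicate block, 2 genes were called lower in F1, 2 higher in F0 and 1 in the interaction, and 212 genes were called lower in F1.

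The values that changed sign were not called. With exon share as a covariate, they were the F1 value of Slc27a2 (-1.37) and Slc27a3 (1.60) and the interaction of Acsl1 (-0.048) and Slc27a3 (0.88). The interaction of Acsl1 was also -0.0141 on log2(RPKM + 0.1) and -0.0145 on log2(RPKM + 1), and that of Acsl3 0.000651 with DESeq2 and 0.0048 with at least 10 reads in every library. On total gene reads, Acsl4 was 0.0070 in F0, and the CD contrast was -0.0142 for Acsl3 and -0.0386 for Acsl4. The F1 intron value of Acsl4 was 0.00018 without a filter and 0.0073 on unique reads.

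Leaving out 1 mouse gave -0.18 to 0.90 for Slc27a2 and -0.56 to 0.20 for Slc27a3 in F1, and -0.48 to 0.18 for Acsl3, -0.43 to 0.41 for Slc27a3 and -0.25 to 0.0413 for Slc27a4 in F0. The interaction ranged from -0.36 to 0.29 for Acsl3, -0.60 to 0.25 for Slc27a3, -0.26 to 0.0184 for Slc27a4 and -0.12 to 0.28 for Acsl1. The CD contrast ranged from -0.28 to 0.38 for Acsl3 and -0.0143 to 0.24 for Acsl4. Intron values ranged from -0.0908 to 0.0777 for Acsl1 and -0.10 to 0.0876 for Acsl4 in F1, and from -0.0328 to 0.13 for Acsl5, -0.45 to 0.060 for Slc27a1 and -0.0271 to 0.21 for Acsl1 in F0. Share differences ranged from -0.0125 to 0.00481 points for Acsl6 and -0.189 to 0.642 points for Slc27a3 in F1, and from -4.77 to 0.919 points for Acsl1, -2.31 to 1.16 points for Slc27a1 and -0.577 to 0.220 points for Slc27a3 in F0. From exon reads not divided by length, the Acsl4 share difference in F1 was -0.0199 points.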
